A study of Drosophila melanogaster with 18 samples.

Results

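The sperm leucyl aminopeptidases of Drosophila melanogaster were followed in poly(A) RNA sequencing of 9 conditions. They were taken as the rows of the gene count table whose FlyBase identifier carries the symbol S-Lap1, S-Lap2, S-Lap3, S-Lap4, S-Lap5, S-Lap7, S-Lap8 or loopin-1. The rule uses names only, and it found 8 of the 17825 genes in the table. Of these, 6 carried reads, and S-Lap4 and S-Lap7 had 0 counts in all 18 libraries.

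Leucyl aminopeptidases remove single residues from the amino end of peptides. In Drosophila, the sperm members of this family are among the most abundant proteins of mature sperm. They are known as components of the paracrystalline material that fills the mitochondrial derivatives along the sperm tail. The antibody that defined loopin-1 marks a Y-chromosome loop in primary spermatocytes and later the sperm tail.

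All flies were of the isogenic w1118 wild-type stock (BDSC 5905), with no treatment in any group. The stage series holds whole embryos at 18 h, whole wandering third-instar larvae and whole adults labelled 24 h, without a sex label. The study's text elsewhere gives the whole adults a younger age, so their age is not settled. The part series holds adults of 24 h as male heads, female heads, male bodies, female bodies, testes and ovaries. Each condition has 2 libraries. Bodies are abdomen and thorax, broken from the heads in liquid nitrogen. Whether gonads stayed in them, and how many flies went into a library, is not given in the sources used here.

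Library totals ranged from 37198249 to 87676051 counts, and levels are given as counts per 1000000 of that total (CPM). The part libraries were read as stranded pairs of 150 bases and the stage libraries as unstranded pairs of 100 bases, so each series was tested on its own. Nothing states that the 2 libraries of a group came from separate collections, so p-values measure only the spread between these samples. In bulk RNA, fewer cells of a type and less RNA per cell cannot be told apart.

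The 8 genes lie on chromosome arms 3L and 2R of the dm6 assembly, 4 on each, and all are annotated as protein coding. S-Lap1 (FBgn0035915) spans 3L from 8617235 to 8619474 on the plus strand. S-Lap2 (FBgn0052351) follows it from 8619888 to 8622091, with 413 bases and no gene between them. At its far end S-Lap2 shares 53 bases with GAPsec, which lies on the minus strand. S-Lap3 (FBgn0045770) runs from 10465187 to 10468974 and S-Lap4 (FBgn0052064) from 10490861 to 10492934, both on the plus strand of 3L. On 2R, S-Lap5 (FBgn0033860) spans 13596677 to 13598750, S-Lap8 (FBgn0034132) 16491100 to 16493233 and loopin-1 (FBgn0259795, once called S-Lap6) 16534943 to 16537086, all on the plus strand. S-Lap7 (FBgn0033868) spans 13778124 to 13780245 of 2R on the minus strand. S-Lap1 and S-Lap2 are the only members with no gene between them. The gap from S-Lap3 to S-Lap4 is 21886 bases and holds 1 gene, that from S-Lap8 to loopin-1 is 41709 bases and holds 2, and that from S-Lap5 to S-Lap7 is 179373 bases and holds 11. The remaining gaps are far wider, at 1843095 bases from S-Lap2 to S-Lap3 and 2710854 bases from S-Lap7 to S-Lap8.

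The zeros of S-Lap4 and S-Lap7 follow from their position and carry no information on expression. S-Lap4 lies wholly inside Rbfox1 on the same strand, and S-Lap7 wholly inside the cuticle protein gene Cpr50Ca on the opposite strand. All 3487 genes of the table that lie wholly within other genes had 0 counts in every library. Both members are therefore left out of every level and test below. The counts were made over the whole span of a gene, introns included. The other 6 members passed the filter on low counts in both series.

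In the testes, the 6 counted members together took 1.89% and 1.44% of all counts in the 2 libraries. The level of loopin-1 was 5357 and 3716 CPM, a mean of 4537 ± 1161 (SD, n = 2), and that of S-Lap1 was 4870 and 3526 CPM, a mean of 4198 ± 951. S-Lap3 had 3461 and 2667 CPM, S-Lap8 had 2566 and 2010 CPM, and S-Lap2 had 2336 and 2156 CPM. S-Lap5 was at 284 and 311 CPM. Replicate 1 was the higher one for every member but S-Lap5.

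Levels of different genes were set against each other per kilobase of gene span. In the testes the mean was 2116 CPM per kilobase for loopin-1, 1874 for S-Lap1, 1072 for S-Lap8, 1019 for S-Lap2, 809 for S-Lap3 and 143 for S-Lap5. On this scale loopin-1 and S-Lap1 overlapped between libraries, as did S-Lap8 and S-Lap2. S-Lap5 lay below every other member in both libraries. S-Lap3 has a span of 3788 bases but exons of 3014 bases in the annotation, and per kilobase of exon its mean was 1017, against 1113 for S-Lap8 and 1073 for S-Lap2 on that scale. Among 13170 genes with reads in the testes, the members ranked 34 (loopin-1), 37 (S-Lap1), 75 (S-Lap8), 81 (S-Lap2), 100 (S-Lap3) and 706 (S-Lap5) per kilobase of span.

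Across conditions, all 6 members followed nearly one order of mean CPM. The testis was highest, followed by male body, whole adult and larva. Far below came ovary, female body and the heads of both sexes, and the embryo was lowest. The ovary, female body and head libraries overlapped each other for every member. S-Lap1 also overlapped between male bodies and whole adults, and S-Lap5 between female heads and embryos. Female heads had the higher mean of the heads except for S-Lap5. Levels of stages and parts come from different library types, so their place in one order is a description.

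**Figure D1:**
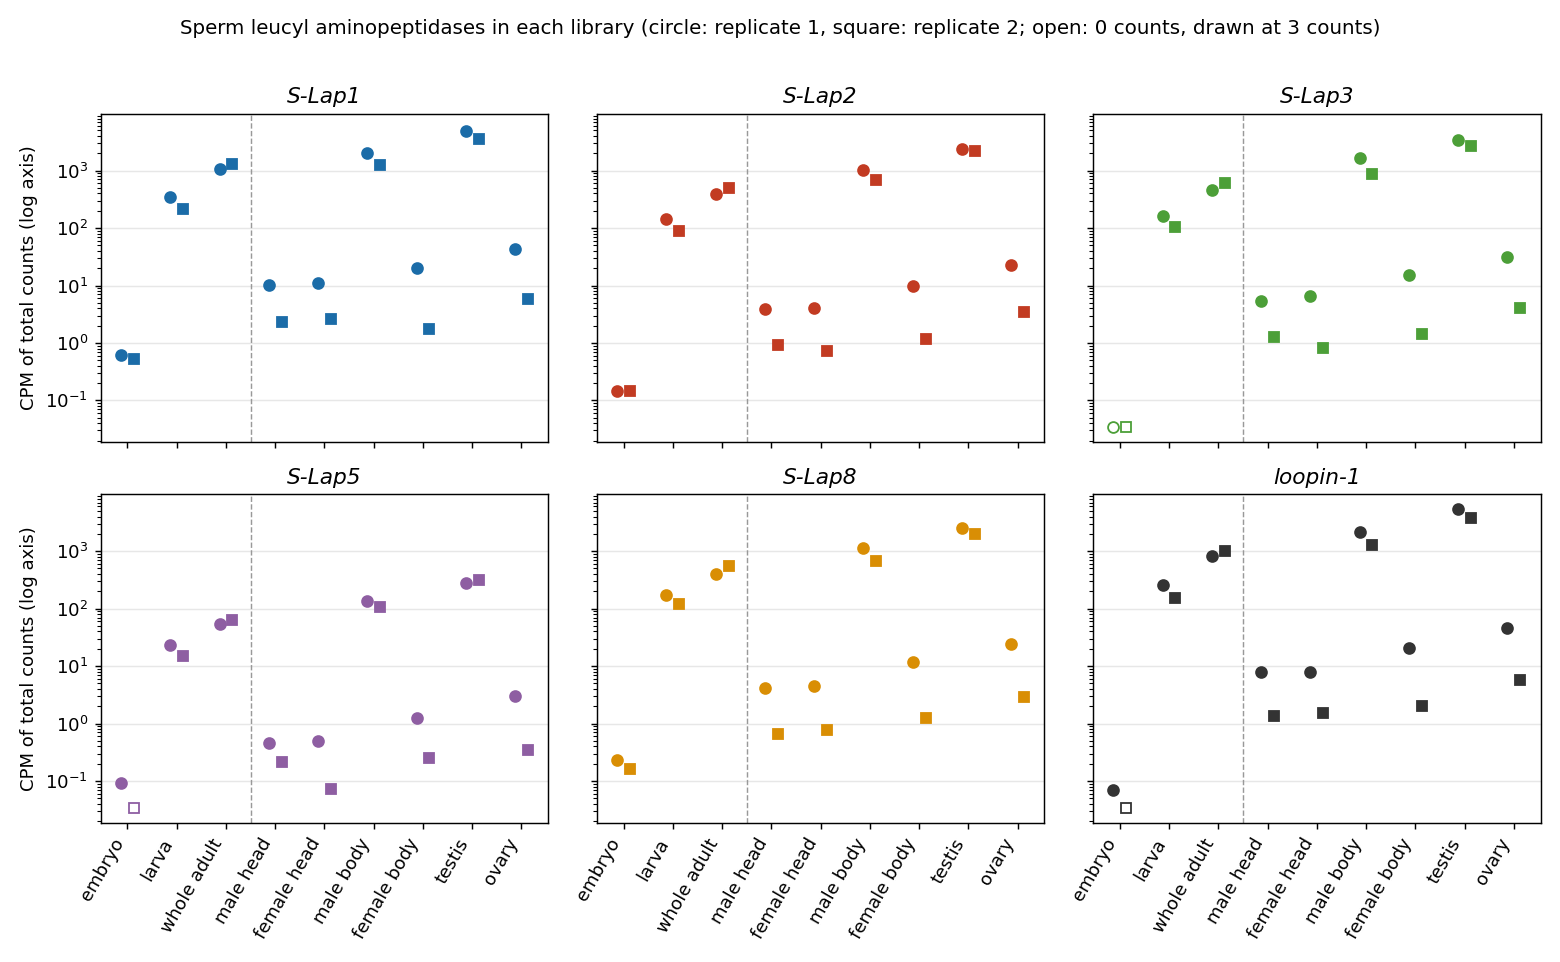
CPM of each counted member on a log axis in all 18 libraries, by condition, with circles for replicate 1, squares for replicate 2 and open symbols for 0 counts drawn at the level of 3 counts. Stages stand left of the dashed line and adult parts right of it; testis libraries are highest for all 6 members, and replicate 1 lies above replicate 2 in both heads, female bodies and ovaries.

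The library values of loopin-1 show the range. Its counts were 220222 and 183071 in testes, 84309 and 64383 in male bodies, 38701 and 45813 in whole adults and 12740 and 7076 in larvae. In ovaries they were 2445 and 393, in female bodies 1098 and 103, in male heads 293 and 83, in female heads 394 and 84 and in embryos 6 and 0. Every testis, male body, whole adult and larva library stood above every ovary, female body, head and embryo library.

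S-Lap1 repeated this pattern at similar depth. It had 200193 and 173688 counts in testes, 80114 and 62814 in male bodies, 50201 and 59948 in whole adults and 17596 and 9936 in larvae. The counts were 2318 and 392 in ovaries, 1065 and 90 in female bodies, 380 and 141 in male heads, 539 and 149 in female heads and 55 and 46 in embryos. S-Lap1 was the one member with over 40 counts in each embryo library.

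S-Lap5, the lowest member per kilobase in testes, kept the order at lower depth. Its counts were 11672 and 15315 in testes, 5399 and 5540 in male bodies, 2573 and 2852 in whole adults and 1164 and 698 in larvae. In the low conditions it had 164 and 23 counts in ovaries, 66 and 13 in female bodies, 17 and 13 in male heads, 24 and 4 in female heads and 8 and 0 in embryos. At these depths a level of S-Lap5 in heads and embryos is known only roughly.

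The other 3 counted members lay between these in depth. S-Lap3 had 142254 and 131407 counts in testes, 63812 and 44184 in male bodies, 1715 and 279 in ovaries, 802 and 72 in female bodies, 202 and 78 in male heads and 321 and 46 in female heads. S-Lap8 had 105477 and 99004 counts in testes, 44152 and 34463 in male bodies, 1286 and 196 in ovaries, 623 and 64 in female bodies, 153 and 40 in male heads and 218 and 44 in female heads. S-Lap2 had 96027 and 106192 in testes, 40780 and 34939 in male bodies, 1201 and 230 in ovaries, 521 and 60 in female bodies, 146 and 56 in male heads and 203 and 40 in female heads. In each of the 3, the testis libraries were highest and the male body libraries next, with whole adults below them, and replicate 1 of ovary, female body and head above replicate 2. Among the stages, S-Lap3 went from 0 and 0 counts in embryos to 8129 and 4938 in larvae and 21611 and 28108 in whole adults. S-Lap8 went from 20 and 14 to 8727 and 5570 and then 18962 and 25435, and S-Lap2 from 13 and 13 to 7382 and 4105 and then 18375 and 22477. Larvae lay between embryos and whole adults for all 3.

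Testes were compared with ovaries to ask how far the members differ between the gonads. All 6 were higher in the testes, with log2 fold changes between 6.95 for S-Lap3 and 7.01 for loopin-1. Testis and ovary libraries did not overlap for any member. Standard errors ran from 1.29 for S-Lap5 to 1.70 for S-Lap3, and adjusted p from 0.00105 to 0.00464 in edgeR's quasi-likelihood test with Benjamini-Hochberg adjustment over 12597 genes. A gene was called where the adjusted p fell below 0.05 and the log2 difference reached 1 either way. By that rule 37.6% of all genes were called higher in testes and 35.9% lower, so the 6 calls stand against a high background. The median log2 fold change of the members was 6.97, against 0 over all genes tested. The differences between members span 0.06 on the log2 scale, far less than any standard error.

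The size of this difference depends on the ovary library. In ovary replicate 1 the members summed to 170 CPM and in replicate 2 to 22.4 CPM. Without ovary replicate 1 the log2 fold changes were 9.03 to 9.42, and without replicate 2 they were 7.01 to 7.07, with 6 calls either way. DESeq2's size factors moved the median of all genes in this comparison by 0.95, and the members then lay between 7.97 and 8.03.

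Against male heads, testes had all 6 members higher, by log2 fold changes of 9.02 for S-Lap1 to 9.57 for loopin-1 (edgeR adjusted p 0.000396 to 0.00165). Over all genes, 31.8% were called higher. The head libraries held 40 to 380 counts of the 5 more abundant members and 13 to 17 of S-Lap5, so the fold changes rest on shallow counts. S-Lap1 differed least, with 380 and 141 counts in male heads. Without male head replicate 1 the differences were 10.07 to 11.42, and without replicate 2 they were 8.37 to 9.02, with 6 calls each time.

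Male bodies also stood far above male heads and female bodies. All 6 members were higher in male bodies than in male heads, by 7.69 for S-Lap1 to 8.23 for S-Lap5 and S-Lap8 on the log2 scale (edgeR adjusted p 0.00115 to 0.00412), where 30.6% of genes were called higher. All 6 were higher in male than in female bodies by 6.88 for S-Lap8 to 7.13 for S-Lap5 (edgeR adjusted p 0.00201 to 0.00722), where 27.7% were. Without male head replicate 1 the first difference was 8.86 to 10.11, and without replicate 2 it was 6.70 to 7.45, with all 6 called. No male body library overlapped a female body or head library for any member. Female body replicate 1 held a sum of 78.3 CPM and replicate 2 held 7.86 CPM. Without female body replicate 1 the sex difference was 8.58 to 9.53, and without replicate 2 it was 6.80 to 7.17, with all 6 members called in each case.

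The male body carried 49.0% and 29.0% of the mean testis level in its 2 libraries. For 8 post-meiotic testis genes, described below, the values were 45.9% and 28.3%. The part of testis tissue in the male body levels was not tested. The sums over the 6 members were 8142 and 4822 CPM in male bodies and 18874 and 14385 CPM in testes, without overlap. The log2 fold changes of testis over male body were 1.21 for S-Lap5 to 1.38 for loopin-1, with standard errors of 1.003 to 1.33. No member was called (edgeR adjusted p 0.362 to 0.459), 0 had an unadjusted p under 0.05, and DESeq2 called 0. Here 2.89% of all genes were called higher and 24% lower. When testes and male bodies alone were fitted, all 6 members were called with the same differences and adjusted p of 0.00944 to 0.0294. That fit also differs in its filter, scaling factors and number of genes, and which of these changed the call was not tested.

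**Figure D2:**
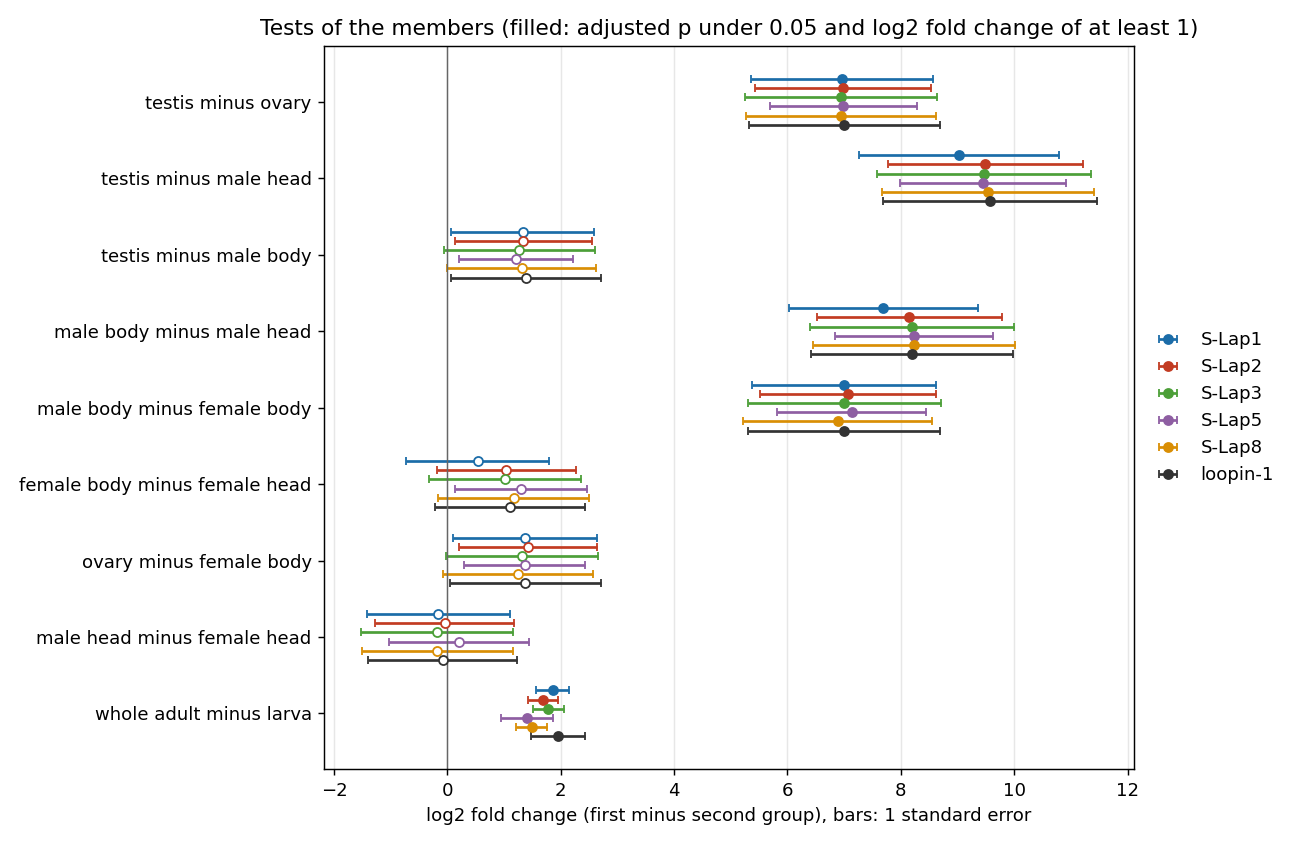
Log2 fold changes of the 6 members from edgeR, with bars of 1 standard error, for 9 comparisons, filled where called. Testis and male body stand 6.88 to 9.57 above ovary, head or female body, whereas the 4 comparisons with open symbols stayed uncalled for all 6 members.

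The low conditions did not separate from each other. Male against female heads gave log2 fold changes from −0.18 for S-Lap3 to 0.20 for S-Lap5, with standard errors of 1.23 to 1.34 and an adjusted p of 1 for all 6 members. No member was called there, in a comparison with 0.00794% of genes called higher in males and 0.0238% lower. Ovaries against female bodies gave 1.24 to 1.42 and no call (edgeR adjusted p 0.396 to 0.512), with 0.127% of genes called higher and 19.6% lower. Without ovary replicate 1 these differences had the opposite sign, −1.10 to −0.63. Female bodies against female heads gave 0.53 for S-Lap1 to 1.30 for S-Lap5, again with no call (adjusted p 0.3998 to 0.768) and a background of 25.6% higher and 19.2% lower. In these 3 comparisons 0 members had an unadjusted p under 0.05, and DESeq2 called 0. With standard errors above 1, differences of this size were not detectable here.

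The sex difference itself was compared between parts. In bodies it exceeded that in heads by 6.94 for S-Lap5 to 7.18 for S-Lap3 on the log2 scale, and all 6 members were called (edgeR adjusted p 0.0149 to 0.0268), against 15.7% of all genes. Between gonads it exceeded that in heads by 6.79 for S-Lap5 to 7.13 for S-Lap3 and S-Lap8, again with all 6 called (adjusted p 0.00776 to 0.0155), against 28.1%. These calls lean on single head libraries. Without female head replicate 1 the calls fell to 0 for bodies, with differences of 4.96 to 5.75, and to 2 for gonads, with 4.82 to 5.70. Without male head replicate 2 there was 1 call for bodies, with 6.08 to 6.29. Without female body replicate 1 the body values rose to 8.39 to 9.71, and without ovary replicate 1 the gonad values to 9.08 to 9.48, with all 6 called. Without male head replicate 1 they were 7.57 to 8.94 for bodies and 7.41 to 9.004 for gonads.

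Through development, the members went from nearly undetected to abundant. In embryos the 6 together had 102 and 73 counts, or 1.16 and 0.835 CPM. In larvae they summed to 1107 and 693 CPM and in whole adults to 3162 and 4043 CPM, with no overlap between stages. All 6 were called higher in larvae than in embryos (31.7% of 12335 genes were) and higher in whole adults than in embryos (29.7%). The log2 fold change of larva over embryo was 9.10 ± 0.41 (SE) for S-Lap1 and 9.72 ± 0.40 for S-Lap8, with edgeR adjusted p of 2.65e-05 and 2.39e-05.

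S-Lap3 had 0 counts in both embryo libraries, so only a bound can be given for it. Taking 3 counts per library as the floor, at 0.0343 CPM, it was at least 3086-fold higher in larvae and at least 13235-fold higher in whole adults. The embryo counts of loopin-1 (6 and 0) and S-Lap5 (8 and 0) also allow no firm fold. S-Lap1 took 53.9% of the embryo counts of the family in replicate 1, with a Wilson 95% interval of 44.3 to 63.3%, and 63.0% in replicate 2, with 51.5 to 73.2%. Such intervals and floors cover counting error only.

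From larva to adult the members rose further. The log2 fold change was 1.95 ± 0.48 (SE) for loopin-1, 1.86 ± 0.29 for S-Lap1, 1.78 ± 0.28 for S-Lap3 and 1.69 ± 0.27 for S-Lap2, and smaller for S-Lap8, at 1.49 ± 0.27, and S-Lap5, at 1.40 ± 0.46. All 6 were called (edgeR adjusted p 0.00263 to 0.0390), where 23.1% of all genes were called higher and 17.8% lower. S-Lap5 lost its call without larva replicate 2 or either whole adult library, and loopin-1 without whole adult replicate 2, which left 4 to 6 calls. For the other 4 members the call held without any 1 library. The sex of the larvae and whole adults is not given, so a difference in sex makeup and one in stage cannot be told apart.

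The mix of members differed between larvae and whole adults on one side and testes, bodies and ovaries on the other. In the 8 libraries of testes, bodies and ovaries, S-Lap1 took 22.4 to 25.9% of the summed counts and S-Lap3 17.9 to 20.03%. In the 4 libraries of larvae and whole adults S-Lap1 took 30.7 to 33.4% and S-Lap3 14.4 to 15.3%, without overlap. Heads stood nearer to the stages for S-Lap1, with 31.7 to 40.6%, on 367 to 1699 counts. S-Lap5 was 1.09 to 7.84% wherever it had counts. Read length and strand protocol differ in the same way as stages and parts, so between these 2 series tissue and library type cannot be told apart. Heads were read with the same protocol as testes, bodies and ovaries, so this limit does not cover the difference among parts.

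In ovaries the mix of members was close to that of testes. No member's share in an ovary library lay more than 1.52 percentage points from its mean share in testes. For comparison, the testis libraries themselves lay up to 1.30 points from that mean, male bodies up to 1.59 and female bodies up to 1.20 and 2.77, the last on 402 counts. For S-Lap1, head libraries lay 6.57 to 15.4 points above it.

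**Figure D3:**
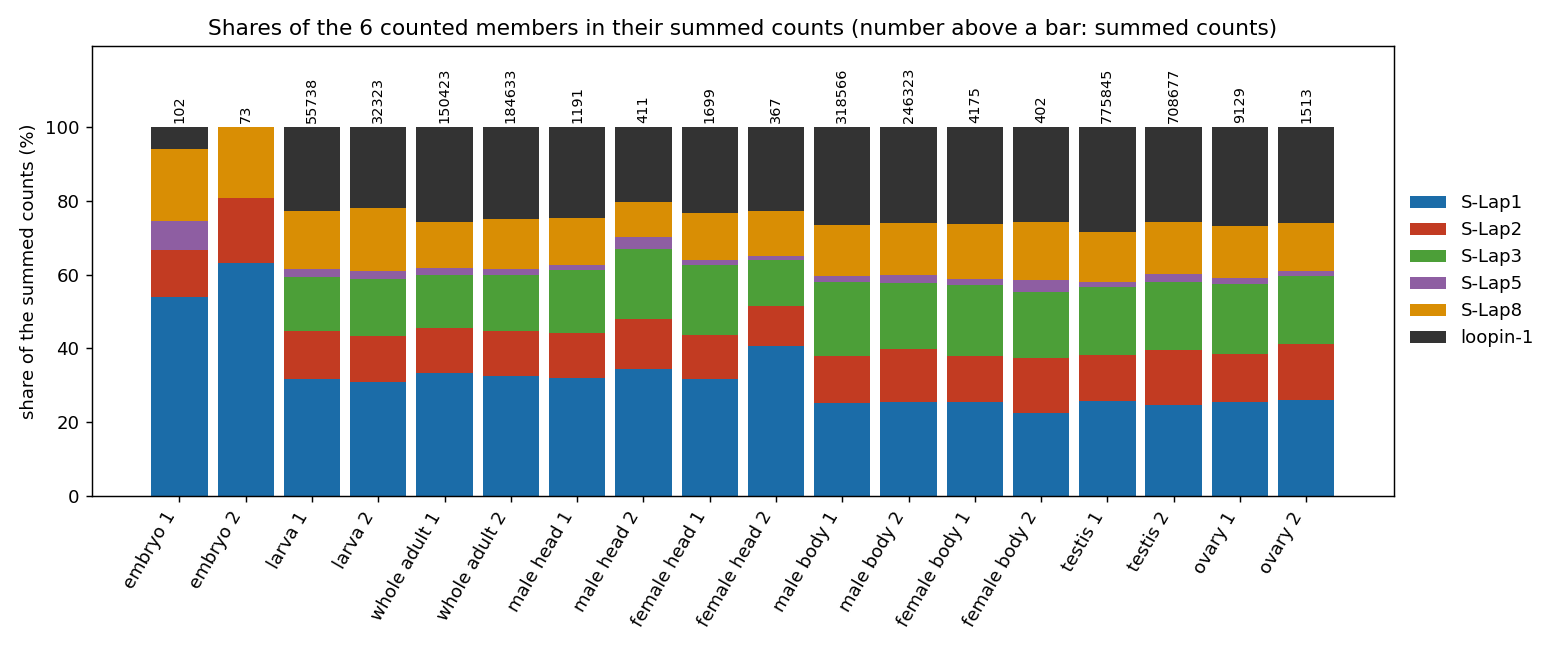
Share of each counted member in the summed counts of the 6 members, in percent, in each library, with the summed counts written above the bar. S-Lap1 takes 22.4 to 25.9% in testes, bodies and ovaries, 30.7 to 33.4% in larvae and whole adults and over 50% in embryos, where only 102 and 73 counts were found.

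Replicate 1 held more of the members than replicate 2 in all 6 part conditions. The ratio of sums was 9.96 in female bodies, 7.57 in ovaries, 5.30 in female heads, 4.70 in male heads, 1.69 in male bodies and 1.31 in testes. Post-meiotic testis genes moved along, with ratios of 14.0 in female bodies, 6.92 in ovaries, 3.61 in female heads and 3.86 in male heads. Of 10 listed, 8 were counted, and all 8 had reads in every ovary, female body and head library. Post-meiotic is only the name of the list, and when in sperm formation these genes are transcribed was not tested. Their sums were 120 and 17.4 CPM in ovaries, 57.6 and 4.12 in female bodies and 5.39 to 23.7 in heads, against 13725 and 10229 in testes.

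Genes of the male accessory gland, which makes seminal fluid proteins and does not make sperm, moved the same way. The 5 counted of 9 listed summed to 42.1 and 7.10 CPM in ovaries, 23.3 and 1.86 in female bodies and 1.99 to 9.30 in heads. They were also present in testis libraries, at 5088 and 4391 CPM, and in male bodies, at 2409 and 1525. The seminal fluid gene Acp26Aa alone was at 3005 and 2670 CPM in testes. In each larva library 4 of the 5 were at 0, not the same 4 in both.

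Expressed as percent of the mean testis level, the 3 sets lay close together in the adult parts, but not in larvae and whole adults. In ovaries the aminopeptidases were at 1.02 and 0.135%, the post-meiotic genes at 1.002 and 0.145% and the accessory gland genes at 0.889 and 0.150%. In female bodies the values were 0.471 and 0.0473%, 0.481 and 0.0344%, and 0.493 and 0.0392%. In the 4 head libraries the ranges were 0.0393 to 0.208%, 0.0450 to 0.198% and 0.0420 to 0.196%. The levels of the aminopeptidases in female tissue thus moved with those of both male marker sets, and the part of these markers in the result was not tested.

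**Figure D4:**
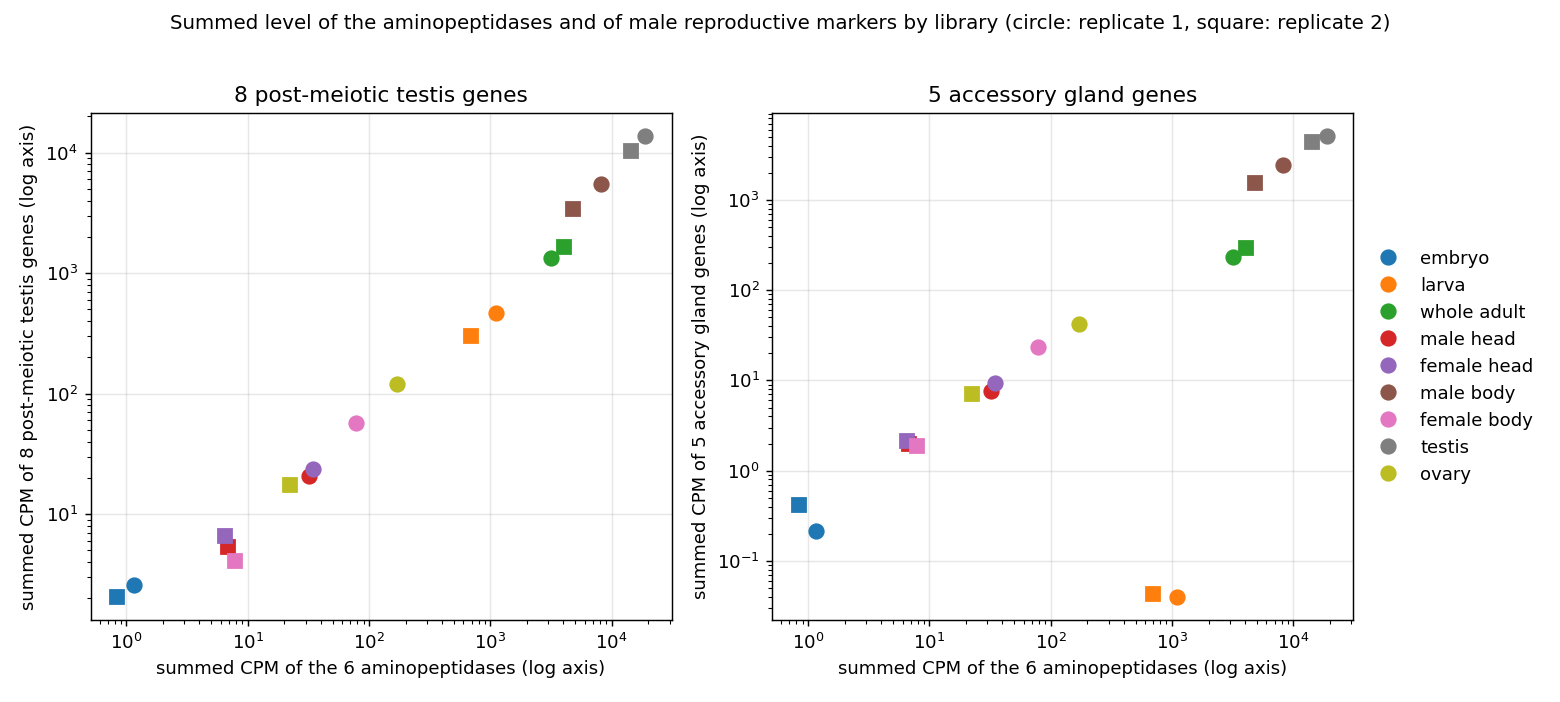
Summed CPM of the 6 counted aminopeptidases against that of 8 post-meiotic testis genes (left) and 5 accessory gland genes (right), 1 symbol per library, on log axes. Libraries run from embryos near 1 CPM to testes at 14385 and 18874 CPM of the aminopeptidases. The larvae leave the line on the right, where their accessory gland sum is about 0.04 CPM. Whole adults have accessory gland sums of 230 and 293 CPM.

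The tissue labels were checked on defining markers. Of the ovary list, 5 of 8 genes were counted, and their sum was 19381 and 16379 CPM in ovaries but 36.1 and 17.5 in testes. The sum was 128 and 89.9 CPM in male heads, 58.6 and 63.7 in female heads and 112 and 84.0 in male bodies. Where that RNA came from was not tested. In female bodies the sum was 14017 and 18787 CPM, but in whole adults only 35.0 and 39.2 CPM. The vitelline membrane gene Vm26Aa was at 10295 and 7923 CPM in ovaries, 7135 and 9441 in female bodies and 0.273 and 0.0438 in whole adults. Vm34Ca, another vitelline membrane gene, was at 0.0420 and 0.0219 CPM in whole adults, so both were nearly undetected there. The germline gene osk of the same list was detected in whole adults, at 9.71 and 11.6 CPM. It was at 165 and 217 CPM in female bodies and 0 and 0.0429 in larvae. The sex of the whole adults is not given and their age is not settled. The part of this in the larva-to-adult differences of the members was not tested. Photoreceptor genes, 7 of 8 counted, summed to 30869 to 45177 CPM in heads and to 186 at most in the other part libraries. The members' peak lay in the libraries where the post-meiotic testis genes also peaked. The accessory gland genes peaked there too, at 5088 and 4391 CPM against 2409 and 1525 in male bodies. The shared peak is thus not particular to genes of sperm formation.

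Other genes of sperm formation showed similar differences between the gonads. Of 8 post-meiotic genes all were called higher in testes, with a median log2 fold change of 6.90, against 0 over all genes. Over all genes 37.6% were called higher and 35.9% lower. betaTub85D, the testis beta tubulin of the sperm axoneme, differed by 7.08, Mst98Ca by 7.10 and dj, a sperm tail protein, by 6.91. Of 14 listed sperm mitochondrial genes 10 were tested, and all 10 were called higher, with a median of 6.83. Among them were Hsp60B, a chaperonin (6.97), Porin2, a mitochondrial channel (6.68), and knon, which acts in the mitochondrial derivatives (6.97). The list of sperm tail and sperm chromatin genes shares members with the first. Of its 14 genes 12 were tested, and all 12 were called higher, with a median of 6.84, Mst87F included at 6.89. Of the accessory gland list, 5 of 5 were higher, with a median of 7.19, and of the ovary list 5 of 5 were lower, with a median of −9.44. Of 7 photoreceptor genes 2 were called higher and 1 lower, with a median of −0.29.

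The regulators of spermatocyte transcription differed from the members in range. Of 10 listed, 8 were tested, and 7 of these were called higher in testes than in ovaries. The median of the 8 was 4.85, with values from 0.79 for mia to 7.07 for kmg, a repressor of somatic genes in the male germline. topi, a zinc finger protein of the testis meiotic arrest complex, differed by 3.61. From larva to whole adult 0 of these 8 were called in edgeR, with a median of −0.57, whereas 8 of 8 post-meiotic genes were called higher, with a median of 1.99. The aminopeptidases, 6 of 6 called higher, had a median of 1.73, against −0.02 over all genes. In this comparison 23.1% of all genes were called higher and 17.8% lower.

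Cytosolic peptidases outside the members moved in both directions. Of 6 listed apart from the members, 4 were tested between testes and ovaries, where 1 was called higher and 2 lower, with a median log2 fold change of −0.37. Psa, a puromycin-sensitive aminopeptidase, was higher in testes by 1.96 ± 0.22 (SE), at 1072 and 1317 CPM against 209 and 252. Dip-B, a dipeptidase, was lower by 2.51 ± 0.34, at 110 and 187 CPM against 494 and 777, and Dip-C was lower by 1.11 ± 0.25. grsm, a leucyl aminopeptidase outside the sperm group, was at 302 and 289 CPM in testes and 190 and 151 in ovaries, and it was not called (edgeR adjusted p 0.168). grsm had 336 and 309 CPM in larvae and 146 and 167 in whole adults, a decrease of 1.26 ± 0.24 on the log2 scale that was called (adjusted p 0.00529). Psa, like the 6 sperm members, was called higher in whole adults than in larvae, by 1.24 ± 0.18 (adjusted p 0.00212). Psa was also called higher in testes than in male heads (3.33) and in male than in female bodies (1.43), the same directions as the members with smaller differences.

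The genes most like the members were found by Pearson correlation of mean log2(CPM + 0.5) over the 9 conditions, as a description. These points share libraries and the large gap between testis and other tissue. Hsp60C, a chaperonin, came first at r = 0.9999, followed by Mst98Ca (0.9989), CG10252 (0.9987), CG30376 (0.9985) and CG33340 (0.9983). Of 13288 genes compared, 97 outside the members reached 0.99. Between members, the 15 pairs had r from 0.984 to 0.9996. By Spearman's rho, 254 genes tied at 1, and Hsp60C and CG33340 stayed among the leading 5.

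Genes next to the members were read out in the same comparison. Within 10 kb of a member lie 21 genes, of which 17 were tested between testes and ovaries. Of these, 7 were called higher in testes, 3 lower and 7 neither way. Over all genes 37.6% were called higher and 35.9% lower, so the share called higher was close to the background. CG32061, 551 bases from S-Lap3, was higher by 7.63, and knon, 3655 bases from S-Lap8, by 6.97. GAPsec, which overlaps S-Lap2, was lower by 3.32, at 7.90 against 58.7 CPM. Cpr50Ca, the gene around S-Lap7, was higher in testes by 6.72, at 6.45 against 0.0465 CPM. Whether its reads include any from S-Lap7 was not tested, since reads of overlapping genes were not separated by these counts. Rbfox1, around S-Lap4, was at 91.4 CPM in testes and 74.8 in ovaries and was not called.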

How the data were processed

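Per the labels, libraries were sequenced on an Illumina Hi-Seq instrument. The submitters' processing notes name cutadapt 1.15, TopHat2 2.1.1, the dm6 build and the dmel r6.15 annotation. The counting tool is not given in the sources used here. The authors deposited 1 table of raw counts per gene for all 18 libraries. Its lengths are those of whole gene spans. Genes lying wholly within others have no counts, and the strand used in counting is not given.

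Counts were tested in edgeR 4.0.16 (R 4.3.3) with TMM factors, a low-count filter of at least 10 and the quasi-likelihood F test, with the 12 part libraries (12597 genes) and the 6 stage libraries (12335 genes) fitted apart. DESeq2 1.42.0 and edgeR with its size factors were alternatives, as were no filter, a higher filter minimum of 50, the compared groups alone, a replicate block and each library left out. Standard errors are the log2 fold change over the root of F. The fit was checked on simulated counts. CPM is relative to the library total, so a count of 3 sets the floor.

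Annotation positions and older symbols came from Ensembl and RefSeq tables. No protein table was at hand, so relatives by protein sequence were not searched and no sequences are shown. Members were all named, with up to 3 genes of highest mean CPM from each list (post-meiotic, spermatocyte, sperm mitochondrial, sperm tail and chromatin, peptidase, ovary, head, accessory gland) and the 5 genes most like the members. mia, kmg, Dip-C, Cpr50Ca, Rbfox1, GAPsec and CG32061 fall outside that rule or were picked for position or rank after their values were seen. The members and lists were chosen with earlier results of these data known.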

Additional observations from a re-analysis of the deposited data

Results flagged for a closer look

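The sex difference of each counted member differed between adult parts by the test of the difference itself. The amount by which the log2 difference of male over female bodies exceeded that of male over female heads was 7.16 for S-Lap1, 7.12 for S-Lap2, 7.18 for S-Lap3, 6.94 for S-Lap5, 7.07 for S-Lap8 and 7.09 for loopin-1. The amount by which testis over ovary exceeded male over female heads was 7.12 for S-Lap1, 7.03 for S-Lap2, 7.13 for S-Lap3, 6.79 for S-Lap5, 7.13 for S-Lap8 and 7.09 for loopin-1. Both differences share the head libraries, and each rests on 2 libraries a group.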

How the results depend on the processing

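Counts of members called were recomputed under every alternative, and 147 of 151 stayed within 1.5 times the reported count. The other 4 were these. Testis against male body went from 0 to 6 when only those groups were fitted. The sex difference of bodies against heads went from 6 to 1 without male head replicate 2 and to 0 without female head replicate 1, a leave-one-out range of 0 to 6. That of gonads against heads went to 2 without female head replicate 1, a range of 2 to 6. Larva to whole adult ranged from 4 to 6 over single libraries left out. Among single values of members, 19 lost their call, 6 gained one and none that was called reversed. Over the alternatives, uncalled differences changed sign for male against female heads (−2.06 to 2.17), female bodies against female heads (−2.31 to 3.26) and ovaries against female bodies (−1.10 to 3.91). The cause of these changes was not tested, and fits without a library or of the compared groups alone also hold fewer samples.

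A replicate block changed no call. For testis over ovary it gave log2 fold changes of 7.55 to 7.77 and adjusted p of 4.78e-05 to 5.78e-05, against 0.00105 to 0.00464 without it. Deviations of same-numbered libraries correlated at 0.28 to 0.67 over the 15 pairs of part groups and at −0.05 to 0.12 over the 3 pairs of stages. The labels do not say what a shared number means. With 2 libraries a group, the members' levels in ovaries, female bodies and heads are uncertain by the ratios between replicates. These were 4.70 to 9.96 for the sums and 2.12 to 11.3 for single members. Protein relatives, planned as named genes, were not searched.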
